A study of Mus musculus with 12 samples.

Results

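The proteasome subunit genes of NK cells were examined in 12 RNA-seq libraries. They were taken by name: rows of the count table whose symbol is Psm, a letter from a to g and a number (with or without the ending ip1), and which reached at least 1 CPM (read counts scaled to library size) in 3 or more libraries. The pattern matched 48 of the 50674 rows, and 47 passed the minimum. All 47 were among the 17457 genes tested. Psma8, the testis form of a 20S alpha subunit, was the row outside, with 0 to 4 counts per library. Psmb11, the thymus-specific beta subunit, was the member nearest the minimum, at 2.65 to 5.60 CPM. By role, the members were 14 constitutive subunits of the 20S core, 3 immunoproteasome subunits, the tissue-restricted Psmb11, 6 ATPases and 11 other subunits of the 19S regulatory particle, 7 assembly chaperones, and 5 activators and inhibitors of the core.

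The proteasome is the protease that degrades ubiquitin-tagged proteins. Its 20S core is a barrel of alpha and beta rings whose beta1, beta2 and beta5 subunits (Psmb6, Psmb7 and Psmb5) cut the substrate. In lymphocytes and in cells exposed to interferon gamma these are partly replaced by the immunosubunits Psmb9, Psmb10 and Psmb8, which favour peptides suited to MHC class I. The 19S particle caps the core, binds and removes ubiquitin and unfolds the substrate with its ATPase ring, while the PA28 activators (Psme1, Psme2 and Psme3) and PA200 (Psme4) open the core without ATP.

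The cells were splenic NK cells of mice (strain label C57BL/6) expanded in IL-2, either wild-type or Mirc11-/-, that is, without the microRNA cluster of miR-23a, miR-27a and miR-24-2. Each genotype was sampled unstimulated and after 6 h of stimulation through the activating receptor NKG2D, with 3 biological replicates per group. The expansion in IL-2 was common to all 4 groups. The labels do not say in which tissues the cluster was deleted, or whether replicates were single mice or pools. In such bulk samples, fewer cells of a type and less RNA per cell cannot be told apart.

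Library totals ran from 15139281 to 25342991 counts. The 8 NK markers were all measured and summed to 9701 to 11850 CPM in unstimulated and 6535 to 7863 CPM in stimulated wild-type libraries, and to 10630 to 11570 and 3450 to 5577 CPM in the Mirc11-/- ones. The 6 B-cell markers summed to 57.1 to 73.1 CPM in unstimulated and 102 to 128 CPM in stimulated libraries, with Cd79a and Cd79b under 1 CPM in every library. T-cell, macrophage, dendritic and granulocyte markers summed to at most 113, 73.6, 207 and 8.64 CPM in any library, and their ranges in stimulated and unstimulated libraries of a genotype overlapped. Erythroid and platelet markers reached at most 0.346 CPM. Vomeronasal receptor genes, which NK cells are not known to use, stood at 13.6 to 17.3 CPM in the unstimulated libraries of both genotypes, 24.8 to 41.5 CPM in stimulated wild-type libraries and 49.0 to 85.1 CPM in stimulated Mirc11-/- libraries. The part of the NK-marker, B-cell-marker and vomeronasal levels, which move with stimulation, in the results was not tested beyond the fits named below.

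One library stood apart. In Mirc11-/- stimulated replicate 1 the 47 members together took 2151 CPM, against 2847 and 2856 CPM in the other 2 libraries of its group, and 43 of the 47 were below both of them. It also had the highest vomeronasal level, 85.1 CPM. The departures from the other 2 libraries were graded by transcript length: across the 47 members the Spearman correlation was 0.53, and across 8607 genes of 10 CPM or more it was 0.52, with shorter transcripts lower. Members are short, with a median length of 1410 bases against 2788 bases for those genes. Psmb5 was at 0.59 times the level of the other 2 libraries and Psma5 at 0.64 times, whereas Psmc2 was at 1.38 times and the low Psmb11 at 1.565 times. Psmc2 shares some of its 31-base words with other genes, most often with the vomeronasal receptor gene Vmn1r55. Psma6 and Psmd3 also share words most often with vomeronasal receptor genes, to a smaller extent, and were at 0.73 and 0.83 times. The part of such sharing in these counts was not tested. The part of Mirc11-/- stimulated replicate 1 in each result below is given by the fit without it.

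**Figure D1:**
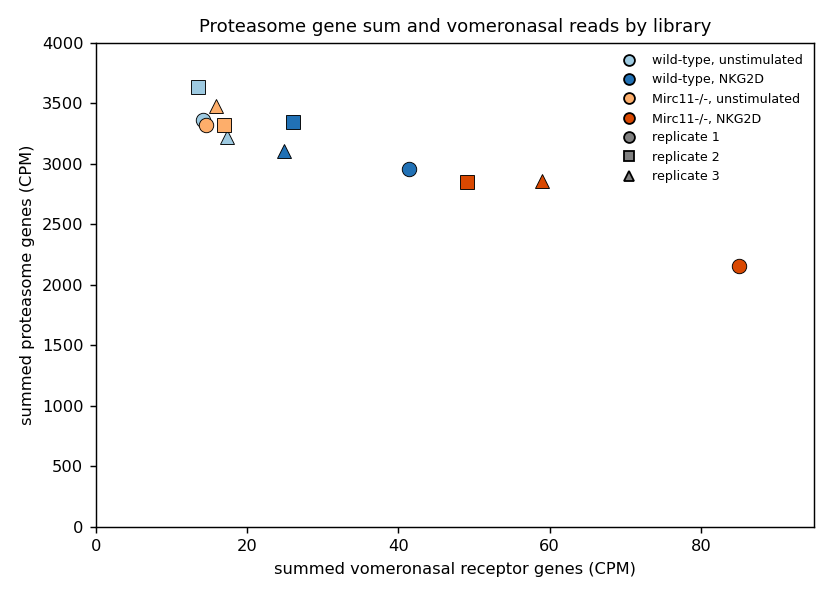
Summed CPM of the 47 proteasome genes (vertical axis) against summed CPM of vomeronasal receptor genes (horizontal axis), 1 point per library, coloured by group and shaped by replicate. The 6 unstimulated libraries lie at 3218 to 3633 CPM, and Mirc11-/- stimulated replicate 1 lies apart at 2151 CPM.

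Levels between genes were compared per kilobase of transcript, on a TPM-like scale with transcript lengths from GENCODE vM21. In unstimulated wild-type cells the 14 constitutive core genes had a median of 94.1, from 46.3 for Psma2 to 142 for Psmb3. The core genes, whose products assemble in equal number, differed 3.08-fold in transcript level. With the length of the longest transcript model in place of the mean length, an alternative chosen after the data were seen, the range was 4.67-fold, from 32.3 for Psma3 to 151 for Psmb3. Among the catalytic pairs, the immunosubunit Psmb8 stood at 114 ± 5.18 (SD, n = 3) and its homologue Psmb5 at 86.4 ± 0.568. Psmb9 was much lower, at 27.6 ± 1.03, against 129 ± 3.51 for its homologue Psmb6. Psmb10 stood at 49.6 ± 2.03 and its homologue Psmb7 at 73.9 ± 2.01. In each of these 3 pairs the difference was larger than the spread between libraries.

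By median the 19S genes were expressed below the core: the 6 ATPases had a median of 48.4 and the 11 other subunits a median of 45.4 per kilobase. The ranges overlapped: the ATPases reached 69.4 (Psmc3) and the other subunits 83.5 (Psmd8), above the lowest core gene, Psma2, at 46.3. Psme1, one of the alternating subunits of the PA28 activator, was the highest of all 47 members at 218 ± 8.23, and its partner Psme2 stood at 123 ± 2.84. The nuclear PA28 gamma gene, Psme3, stood at 49.3 ± 6.57 and the large PA200 gene, Psme4, at 19.9 ± 2.17. The assembly chaperones were low, with a median of 13.0. Psmb11 was the lowest member, at 1.27 ± 0.370. It had 47 to 127 counts per library.

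In wild-type cells NKG2D stimulation lowered 7 of the 47 proteasome genes and raised none. The fallen genes were Psme3, the nuclear PA28 activator, the 19S subunits Psmd3, Psmd12, Psmd1, Psmd11 and Psmd7, and the core-assembly chaperone Psmg1. Their changes ran from -0.61 log2 for Psme3 to -0.37 log2 for Psmd7. None of the 14 constitutive core genes, the 3 immunosubunits or the 6 ATPases passed the test. The 7 members make 14.9% of 47, against 15.7% of all tested genes called lower and 16.1% called higher. Of the 8619 genes of 10 CPM or more, 22.3% were called lower. The median change over the 47 members was -0.14 log2, beside 0.02 log2 over all tested genes and -0.035 log2 over the genes of 10 CPM or more. Tests are edgeR quasi-likelihood tests with Benjamini-Hochberg adjustment over all 17457 genes and a threshold of 0.05.

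The count of 7 depended on single libraries. It was 15 when the shared estimate of the spread was made without Mirc11-/- stimulated replicate 1 (19.8% of all genes were then called lower), and 4 without wild-type stimulated replicate 1. Psme3, Psmd3, Psmd1 and Psmd11 stayed past the threshold whichever of the 12 libraries was left out. Psmg1 missed it without any 1 of the 6 wild-type libraries (highest edgeR adjusted p 0.0993), Psmd7 without any of these but stimulated replicate 2 (highest 0.121), and Psmd12 without unstimulated replicate 3 or stimulated replicate 1 (highest 0.0777). With the vomeronasal level of each library as a covariate, 2 members were lower and 6 higher, and the median turned to 0.25 log2. That level itself differs between stimulated and unstimulated libraries without overlap, so in this fit the 2 cannot be told apart. In 14 of the 47 members all 3 stimulated libraries were below all 3 unstimulated ones, against 24.1% of all tested genes.

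**Figure D2:**
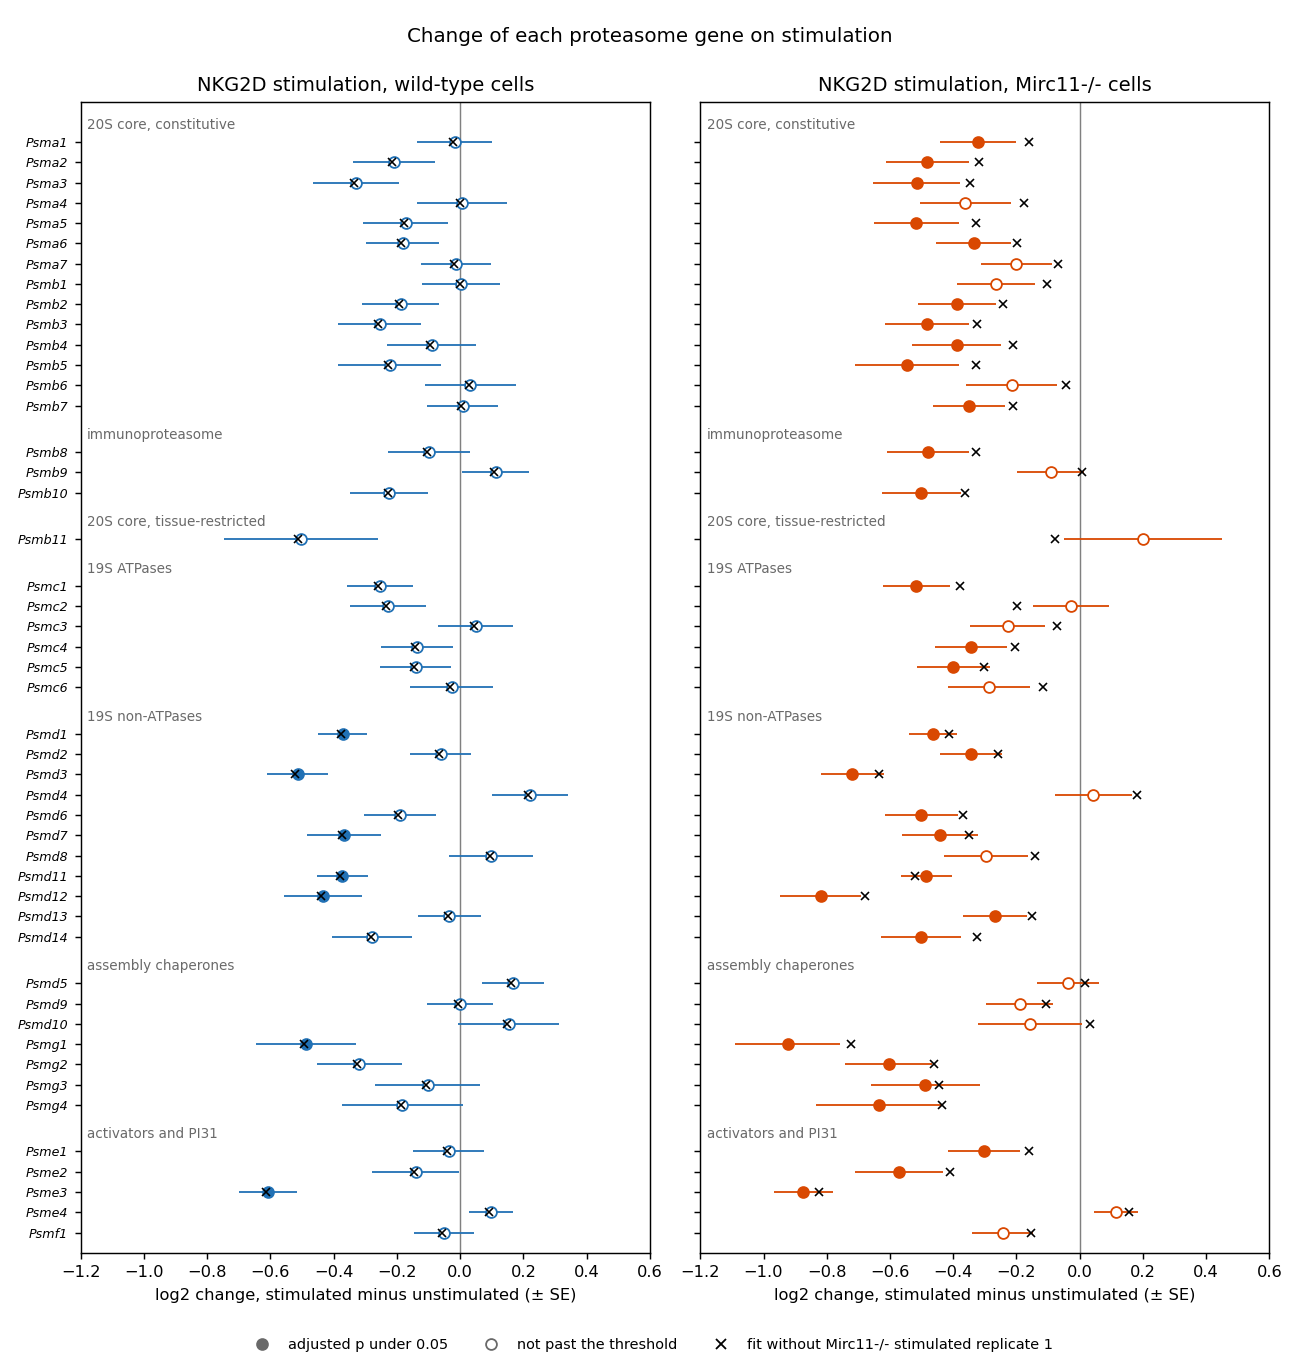
Log2 change on stimulation for each of the 47 members (rows, by class), with its standard error as a bar, in wild-type cells (left) and Mirc11-/- cells (right). Filled points are past the threshold, and crosses are the estimates without Mirc11-/- stimulated replicate 1. In the left panel 7 points are filled, and in the right panel 31 are filled, with most crosses nearer to 0 there.

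Of the activators, Psme3 fell in both genotypes. It had 108, 106 and 113 CPM in the unstimulated wild-type libraries and 62.7, 81.3 and 70.8 CPM in the stimulated ones. The groups did not overlap, and Psme3 fell by 0.61 ± 0.09 log2 (SE; edgeR adjusted p = 0.000274), or 1.52-fold. In Mirc11-/- cells Psme3 had 101, 111 and 104 CPM unstimulated and 53.4, 59.7 and 58.7 CPM stimulated. Again no library overlapped, and Psme3 fell by 0.87 ± 0.09 log2 (edgeR adjusted p = 9.59e-06), or 0.82 log2 without Mirc11-/- stimulated replicate 1. With the vomeronasal covariate the changes of Psme3 were -0.40 and -0.46 log2 and missed the threshold (edgeR adjusted p = 0.0522 and 0.285).

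Psme4, whose product caps the core in the nucleus, passed in neither genotype in the reported fit. It had 104, 109 and 109 CPM in unstimulated and 114, 115 and 115 CPM in stimulated wild-type libraries, a change of 0.10 ± 0.07 log2 (edgeR adjusted p = 0.312). In Mirc11-/- cells the change was 0.11 ± 0.07 log2 (adjusted p = 0.200), with 106, 102 and 98.8 CPM before and 104, 112 and 115 CPM after stimulation. Under a filter of 5 CPM, Psme4 was called higher there. The ratio of Psme3 to Psme4 counts within a library, which does not depend on library scaling, was 0.954 to 1.08 in the 6 unstimulated libraries and 0.510 to 0.706 in the 6 stimulated ones. These ratios did not overlap, and no test was run on them.

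The cytoplasmic PA28 genes, Psme1 and Psme2, did not pass the test in wild-type cells, with changes of -0.04 ± 0.11 and -0.14 ± 0.14 log2 (edgeR adjusted p = 0.839 and 0.470). Psme1 had 156, 160 and 141 CPM in unstimulated and 148, 153 and 144 CPM in stimulated wild-type libraries, ranges that overlap. In Mirc11-/- cells Psme2 fell from 94.9, 90.8 and 95.9 CPM to 48.5, 72.5 and 68.1 CPM, by 0.57 ± 0.14 log2 (edgeR adjusted p = 0.00439; -0.41 log2 without replicate 1 of the stimulated group). Psme1 also fell there, from 169, 159 and 177 CPM to 108, 147 and 153 CPM, by 0.30 ± 0.11 log2 (edgeR adjusted p = 0.0414). Without that replicate the change of Psme1 was -0.16 log2 and missed the threshold (adjusted p = 0.102), as it did without unstimulated replicate 1 or 3 (0.0823 and 0.113). Psme2 shares 33.5% of its 31-base words with other genes, most often with the copy Psme2b, which had 59 to 180 counts per library. The count of Psme2 is therefore uncertain. Psmf1, the core inhibitor PI31, passed in neither genotype.

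**Figure D3:**
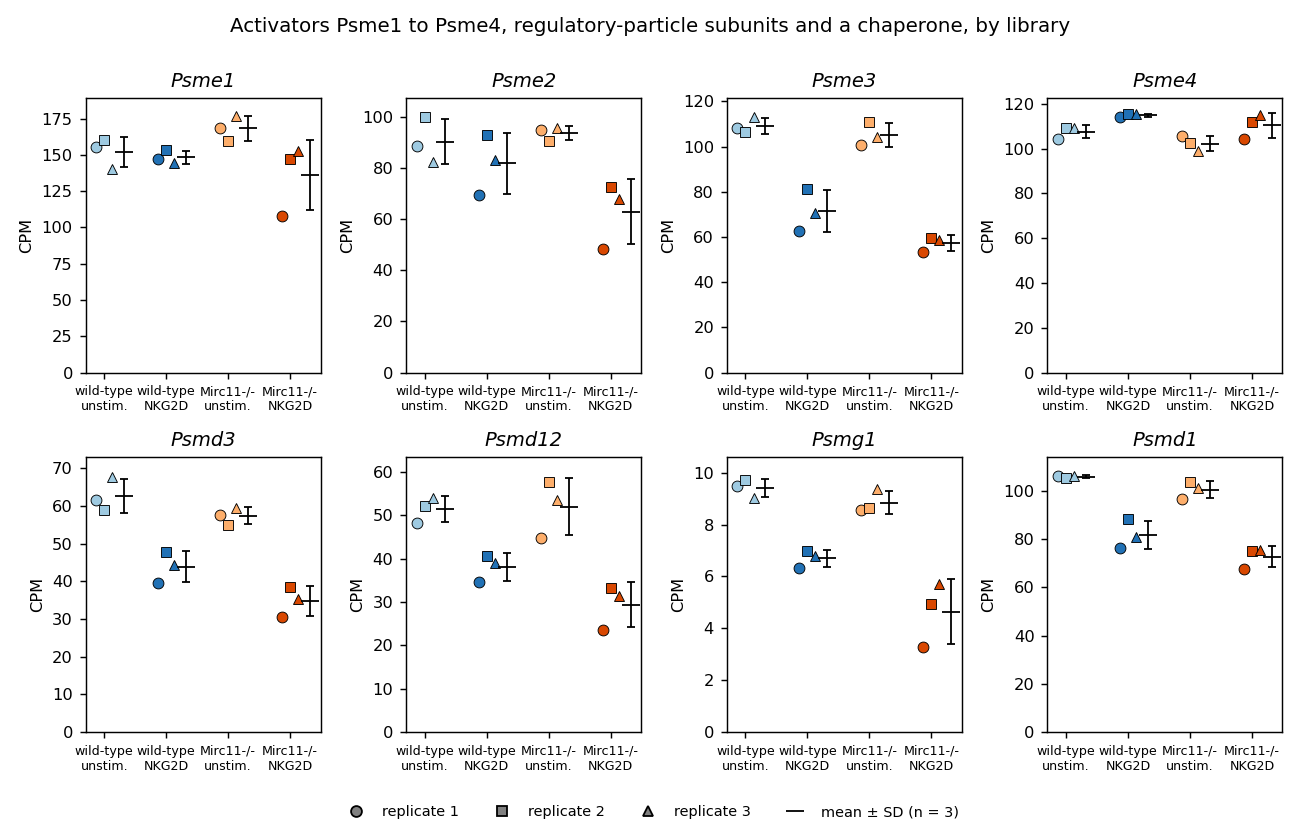
CPM in each library (points, shaped by replicate) and mean ± SD of 3 libraries (bars) for the activators Psme1 to Psme4, the 19S subunits Psmd3, Psmd12 and Psmd1, and the chaperone Psmg1, in the 4 groups. Psme3 lies at 101 to 113 CPM in all unstimulated libraries and at 53.4 to 81.3 CPM in all stimulated ones, while Psme4 stays between 98.8 and 115 CPM.

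The 19S non-ATPase subunits held 5 of the 7 members called in wild-type cells. These are 45.5% of the class, against 15.7% of all tested genes and 22.3% of those of 10 CPM or more. Psmd3, a subunit of the 19S lid, had 61.6, 58.9 and 67.6 CPM unstimulated and 39.5, 47.8 and 44.3 CPM stimulated. The libraries did not overlap, and Psmd3 fell by 0.51 ± 0.10 log2 (edgeR adjusted p = 0.00133). Psmd1, the large scaffold of the 19S base, went from 106, 105 and 106 CPM to 76.5, 88.2 and 80.7 CPM, a fall of 0.37 ± 0.08 log2 (edgeR adjusted p = 0.0024). The lid subunits Psmd12, Psmd11 and Psmd7 fell by 0.43, 0.37 and 0.37 log2 (largest adjusted p 0.028). Psmd4, the ubiquitin receptor of the particle, had the highest estimate of the class at 0.22 log2 and did not pass the test (edgeR adjusted p = 0.183), although all 3 stimulated libraries (78.0, 86.4 and 75.6 CPM) were above the unstimulated ones (70.4, 75.4 and 60.3 CPM).

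Of the 11 non-ATPase subunits, 9 were lower after stimulation of Mirc11-/- cells, and 8 were without stimulated replicate 1. The shares called lower were 22.1% and 21.3% of all tested genes, and 35.3% and 33.0% of those of 10 CPM or more. Psmd3 went from 57.7, 54.9 and 59.4 CPM to 30.6, 38.4 and 35.3 CPM, a fall of 0.72 ± 0.10 log2 (edgeR adjusted p = 7.37e-05). Psmd12, another lid subunit, went from 44.8, 57.7 and 53.4 CPM to 23.5, 33.1 and 31.4 CPM, a fall of 0.82 ± 0.13 log2 (edgeR adjusted p = 0.000182). Without stimulated replicate 1 the estimates were -0.63 log2 for Psmd3 and -0.68 log2 for Psmd12, both past the threshold. Psmd4 and Psmd8 were the members of this class that did not pass, at 0.04 and -0.30 log2.

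Among the 6 ATPases, none passed in wild-type cells, where their changes ran from -0.25 to 0.05 log2. Psmc1, Psmc4 and Psmc5 were lower in Mirc11-/- cells. Psmc1 went from 60.2, 64.7 and 62.7 CPM to 35.1, 47.8 and 47.9 CPM, a fall of 0.52 ± 0.10 log2 (edgeR adjusted p = 0.00137). Psmc5 fell by 0.40 ± 0.11 log2 (edgeR adjusted p = 0.0114) from 36.9, 34.8 and 39.6 CPM to 24.3, 30.9 and 29.0 CPM. Without stimulated replicate 1, Psmc1 and Psmc5 stayed past the threshold and Psmc4 did not (adjusted p = 0.0628). Psmc1 shares 32.2% of its 31-base words with other genes, most often with the gene model Gm9575, which had 0 to 6 counts. Any other genes sharing words with Psmc1 were not examined.

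Of the 7 assembly chaperones, Psmg1, which pairs with Psmg2 to build the alpha ring, was the one that fell in wild-type cells. It had 9.49, 9.72 and 9.01 CPM unstimulated and 6.32, 6.97 and 6.80 CPM stimulated, a fall of 0.49 ± 0.16 log2 (edgeR adjusted p = 0.0298). In Mirc11-/- cells Psmg1 went from 8.55, 8.63 and 9.36 CPM to 3.29, 4.94 and 5.71 CPM, and its fall of 0.92 ± 0.17 log2 was the largest estimate of the 47 (edgeR adjusted p = 0.000561). Without stimulated replicate 1 it was -0.72 log2, and Psme3 fell more, at -0.82 log2. Psmg2 fell there by 0.60 ± 0.14 log2 (edgeR adjusted p = 0.00284), from 18.7, 22.4 and 18.0 CPM to 10.3, 14.0 and 14.5 CPM. Psmg3 and Psmg4, the other pair of alpha-ring chaperones, were also lower in Mirc11-/- cells (-0.49 and -0.64 log2), and missed the threshold without that replicate (edgeR adjusted p = 0.0754 and 0.0588). The chaperones of the ATPase ring, Psmd5, Psmd9 and Psmd10, did not pass in either genotype, with changes from -0.19 to 0.17 log2.

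Stimulation lowered 31 of the 47 members in Mirc11-/- cells and raised none, with a median change of -0.39 log2, beside 0.03 log2 over all tested genes and -0.14 log2 over those of 10 CPM or more. Of all tested genes 22.1% were called lower and 23.5% higher, and of the 8619 genes of 10 CPM or more 35.3% were called lower. Without stimulated replicate 1 the count was 22 of 47 (46.8%), the median -0.24 log2 (-0.090 log2 over genes of 10 CPM or more), and 21.3% of all genes and 33.0% of those of 10 CPM or more were called lower. By class, the members lower with and without that library were 10 and 6 of 14 constitutive core genes, 2 and 2 of 3 immunosubunits, 3 and 2 of 6 ATPases, 9 and 8 of 11 other 19S subunits, 4 and 2 of 7 chaperones, and 3 and 2 of 5 activators and inhibitors. Other Mirc11-/- libraries moved the count too. It was 26 without unstimulated replicate 1 or 2 (18.9% of all genes each) and 21 without unstimulated replicate 3 (17.9%). It was 35 without stimulated replicate 2 (21.2%) and 34 without stimulated replicate 3 (20.1%). In 36 members all 3 stimulated libraries were below all 3 unstimulated ones, against 26.4% of all tested genes. With the vomeronasal covariate 1 member was lower and the median turned to 0.35 log2. The vomeronasal ranges of the stimulated and unstimulated libraries do not overlap, so stimulation and that level cannot be told apart in this fit.

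In the core, Psma5 and Psma3, subunits of the outer alpha ring, had the smallest p in Mirc11-/- cells. Psma5 went from 72.8, 76.6 and 72.6 CPM to 37.4, 57.7 and 59.7 CPM, a fall of 0.52 ± 0.14 log2 (edgeR adjusted p = 0.00693; -0.33 log2 without stimulated replicate 1). Psma3 went from 69.8, 72.1 and 75.8 CPM to 38.4, 53.7 and 59.9 CPM, a fall of 0.52 ± 0.14 log2 (edgeR adjusted p = 0.00754; -0.35 log2 without that replicate). Psma5 shares 61.0% of its 31-base words with other genes, most often with the gene model Gm8394, which had 0 to 1 counts. Any other genes sharing words with Psma5 were not examined. The 14 constitutive core genes had changes from -0.55 to -0.20 log2 in Mirc11-/- cells and from -0.33 to 0.03 log2 in wild-type cells.

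All 7 members called in wild-type cells were also called in Mirc11-/- cells, where they make 7 of 31. Of all tested genes lower in wild-type cells 81.9% were also called lower in Mirc11-/- cells, and they make 58.4% of those. Over genes of 10 CPM or more these shares were 90.7% and 57.2%. The 2 sets of libraries are separate, but the estimate of the spread was shared. Without Mirc11-/- stimulated replicate 1, 14 members were called in both genotypes, of 15 in wild-type and 22 in Mirc11-/- cells. These are 93.3% and 63.6% of the calls. The shares were 82.0% and 76.2% over all tested genes, and 90.1% and 77.6% over those of 10 CPM or more.

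The estimate was more negative in Mirc11-/- than in wild-type cells for 44 of the 47 members, and for 43 without stimulated replicate 1. The same held for 52.4% and 52.8% of all tested genes and for 70.7% and 65.3% of the 8619 genes of 10 CPM or more. The median difference over the members was -0.26 log2 with that library and -0.11 log2 without it, beside -0.12 and -0.056 log2 over the genes of 10 CPM or more. No member passed the test of this difference (the interaction) in edgeR, DESeq2 or limma voom, and 0.0115% of all tested genes passed in edgeR. The smallest adjusted p was 0.463, for Psmb7, and 3 members (Psmb7, Psme2 and Psmd12) had an unadjusted p under 0.05. The response of single members was therefore not shown to differ between the genotypes at this number of libraries.

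No immunosubunit passed the test as higher after stimulation. Psmb8 had 149, 178 and 140 CPM in unstimulated and 135, 155 and 145 CPM in stimulated wild-type libraries, which overlap (-0.10 ± 0.13 log2, edgeR adjusted p = 0.599). Psmb9 had 30.1, 35.1 and 28.5 CPM against 35.8, 33.8 and 31.5 CPM, also overlapping (0.11 ± 0.11 log2, adjusted p = 0.451). Psmb10 had 52.6, 59.7 and 50.9 CPM against 44.9, 45.9 and 48.8 CPM, with no overlap but no call (-0.22 ± 0.12 log2, adjusted p = 0.188). Psmb8 fell in Mirc11-/- cells from 159, 149 and 171 CPM to 89.5, 128 and 125 CPM, by 0.48 ± 0.13 log2 (edgeR adjusted p = 0.00857; -0.33 log2 without stimulated replicate 1). Psmb10 fell from 63.0, 52.7 and 67.5 CPM to 34.5, 46.4 and 48.3 CPM, by 0.50 ± 0.12 log2 (edgeR adjusted p = 0.00504; -0.36 log2 without that replicate). Psmb9 stood at 32.5, 34.1 and 36.7 CPM unstimulated and 27.7, 33.8 and 35.2 CPM stimulated, a change of -0.09 ± 0.11 log2 that did not pass (adjusted p = 0.508). The estimate of Psmb9 turned to 0.0086 log2 without stimulated replicate 1 and to 0.018 log2 under a filter of 5 CPM.

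No constitutive homologue passed in wild-type cells. Psmb5 had 55.6, 60.7 and 49.0 CPM unstimulated and 42.2, 50.6 and 48.6 CPM stimulated there (-0.22 ± 0.16 log2, edgeR adjusted p = 0.322). Psmb6 had 83.8, 95.8 and 78.3 against 79.1, 95.4 and 89.2 CPM (0.03 ± 0.14 log2, adjusted p = 0.890), and Psmb7 had 72.3, 76.8 and 66.2 against 70.0, 76.1 and 70.1 CPM (0.01 ± 0.11 log2, adjusted p = 0.969). All 3 genes overlapped between the groups. Psmb5 in Mirc11-/- cells went from 51.8, 50.5 and 53.9 CPM to 24.2, 41.6 and 41.0 CPM, a fall of 0.55 ± 0.16 log2 (edgeR adjusted p = 0.016; -0.33 log2 without stimulated replicate 1). Psmb7 went from 66.7, 73.2 and 76.4 CPM to 45.2, 63.2 and 60.9 CPM, a fall of 0.35 ± 0.11 log2 (edgeR adjusted p = 0.0223), which missed the threshold without that replicate (adjusted p = 0.0544) or without unstimulated replicate 2 or 3 (0.0525 and 0.0739). Psmb6, with 77.6, 66.9 and 82.6 CPM before and 48.9, 71.5 and 74.9 CPM after, overlapped and did not pass (-0.21 ± 0.14 log2, adjusted p = 0.241). Psmb5 shares 71.7% of its 31-base words with other genes, most often with the gene model Gm3375, which had 0 to 2 counts. Any other genes sharing words with Psmb5 were not examined.

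**Figure D4:**
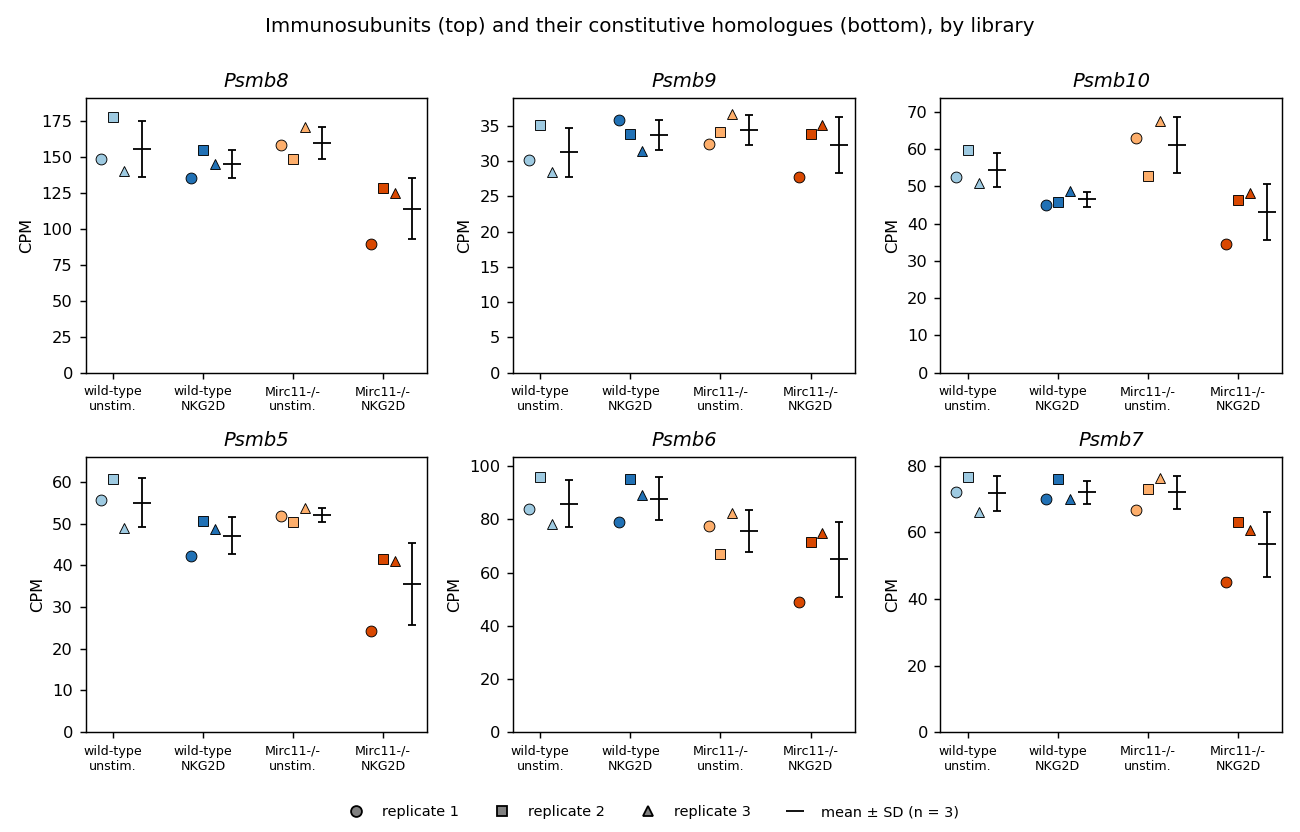
CPM in each library (points, shaped by replicate) and mean ± SD of 3 libraries (bars) for the immunosubunits Psmb8, Psmb9 and Psmb10 (top) and their homologues Psmb5, Psmb6 and Psmb7 (bottom) in the 4 groups. Psmb9 stays between 27.7 and 36.7 CPM in all 12 libraries, and the lowest point of each panel is Mirc11-/- stimulated replicate 1.

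The ratio of an immunosubunit to its homologue within a library does not depend on library scaling. Transcript lengths differ within pairs, at 1628 and 760.5 bases for Psmb8 and Psmb5 and 1352 and 798 bases for Psmb9 and Psmb6. Mirc11-/- stimulated replicate 1, whose departures were graded by length, had the highest ratio of both pairs, 3.70 and 0.567. The part of length in the ratios was not tested. Psmb9/Psmb6 was 0.359, 0.367 and 0.364 in unstimulated wild-type libraries and 0.419, 0.511 and 0.444 in unstimulated Mirc11-/- libraries. After stimulation it was 0.453, 0.354 and 0.353 in wild-type and 0.567, 0.473 and 0.470 in Mirc11-/- libraries. Within each treatment all 3 Mirc11-/- libraries were above all 3 wild-type libraries. The mean difference within treatments was 0.36 log2, or 1.28-fold (exact permutation test within treatments, two-sided, p = 0.005, the smallest this design allows; adjusted p = 0.03 over the 6 ratio tests). Without Mirc11-/- stimulated replicate 1 or replicate 2 it was 0.31 and 0.38 log2, each with an adjusted p of 0.06 in the exact test. Neither Psmb9 nor Psmb6 alone passed the test between genotypes. Psmb9 differed by 0.14 log2 without and -0.06 log2 with stimulation (Mirc11-/- minus wild-type). Psmb6, the denominator, differed by -0.18 log2 without and -0.43 log2 with stimulation. Markers of other cell types separated the genotypes as well: the dendritic-cell markers summed to 77.5 to 131 CPM in unstimulated wild-type and 191 to 207 CPM in unstimulated Mirc11-/- libraries, and to 88.4 to 132 and 159 to 195 CPM after stimulation. T-cell markers summed to 38.6 to 66.6 against 67.6 to 113 CPM without and 46.2 to 72.5 against 75.5 to 97.2 CPM with stimulation. Not all listed markers were present: the dendritic-cell markers Clec9a and Flt3 and the T-cell marker Cd5 were under 1 CPM in every library. The part of these marker sums in the genotype difference of the ratios and of the share below was not tested.

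The other 5 ratio tests did not pass after adjustment. Psmb10/Psmb7 was lower by 0.19 log2 after stimulation and higher by 0.20 log2 in Mirc11-/- cells, each with p = 0.03 and adjusted p = 0.06 in the exact permutation test. Without Mirc11-/- unstimulated replicate 2 these were -0.25 and 0.26 log2, each with an adjusted p of 0.01 in the exact test. Psmb8/Psmb5 was higher by 0.11 log2 after stimulation (exact permutation adjusted p = 0.0675), with 2.68 to 2.93 in unstimulated and 2.99 to 3.21 in stimulated wild-type libraries, and it passed without Mirc11-/- stimulated replicate 3 (0.14 log2, exact permutation adjusted p = 0.045). Taken as 1 pool, the 3 immunosubunits made 51.4% to 53.9% of the counts of the 6 genes in wild-type libraries and 54.1% to 56.5% in Mirc11-/- libraries, ranges that did not overlap. This share is in counts, so it weighs long transcripts more than a share of molecules would.

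**Figure D5:**
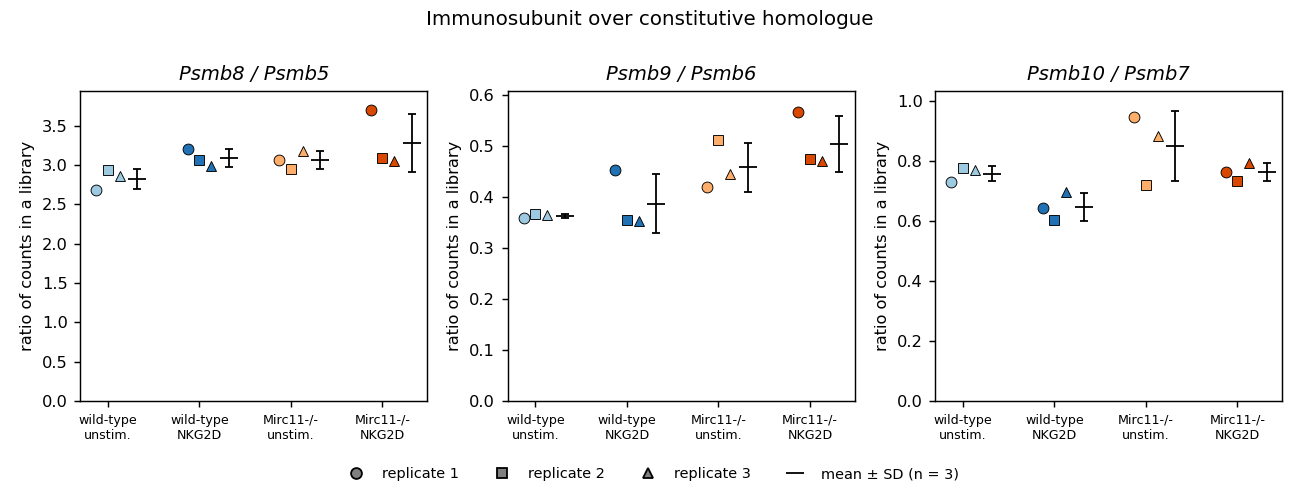
Ratio of counts of each immunosubunit to its constitutive homologue in each library (points, shaped by replicate), with mean ± SD of 3 libraries (bars), in the 4 groups. In the middle panel the Mirc11-/- libraries lie above the wild-type libraries of the same treatment, at 0.419 to 0.567 against 0.353 to 0.453 over both treatments.

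Promoter sequence was set beside these values, from RefSeq (GRCm38.p6). Of the 47 members, 40 had a window that could be used, and the first one listed for a gene was taken. The 250 bases before this RefSeq start were searched on both strands. The antioxidant response element TGACNNNGC, bound by the NRF1 and NRF2 factors (Nfe2l1 and Nfe2l2) that drive proteasome genes, was found in 5 of 40 (Psmb5, Psmb6, Psmc6, Psmd12 and Psmd9), which is 12.5% against 10.1% of 27025 promoters. The CCAAT letters were found in 14 of 40, 35% against 34.5%, and GAAA followed after any 2 bases by a second GAAA, a core of interferon-stimulated response elements, in 3 of 40, 7.5% against 3.04%. The motif letters do not overlap each other. These shares are descriptions, and the presence of the letters does not show binding. The 4 genes of the pairs Psmb8/Psmb5 and Psmb9/Psmb6, and the fallen Psme3 and Psmd12, are shown 5′ to 3′ on the gene's strand, with the matches in capitals.
Psmb8 (chr17:34197945-34198194, plus strand): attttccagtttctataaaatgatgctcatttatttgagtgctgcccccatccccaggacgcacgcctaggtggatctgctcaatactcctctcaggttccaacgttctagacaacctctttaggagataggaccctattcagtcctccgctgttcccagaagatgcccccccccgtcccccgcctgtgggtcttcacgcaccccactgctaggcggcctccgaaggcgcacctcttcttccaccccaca
Psmb5 (chr14:54617996-54618245, minus strand): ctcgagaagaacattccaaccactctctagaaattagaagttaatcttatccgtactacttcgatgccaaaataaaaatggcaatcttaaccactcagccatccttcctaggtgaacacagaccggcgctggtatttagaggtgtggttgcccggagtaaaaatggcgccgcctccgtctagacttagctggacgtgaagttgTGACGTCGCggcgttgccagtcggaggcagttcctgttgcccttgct
Psmb9 (chr17:34187331-34187580, minus strand): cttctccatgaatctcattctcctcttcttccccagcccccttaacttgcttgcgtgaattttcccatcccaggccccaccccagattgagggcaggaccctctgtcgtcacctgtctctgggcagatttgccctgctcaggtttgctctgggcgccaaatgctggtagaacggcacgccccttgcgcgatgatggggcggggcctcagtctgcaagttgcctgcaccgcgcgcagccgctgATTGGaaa
Psmb6 (chr11:70525107-70525356, plus strand): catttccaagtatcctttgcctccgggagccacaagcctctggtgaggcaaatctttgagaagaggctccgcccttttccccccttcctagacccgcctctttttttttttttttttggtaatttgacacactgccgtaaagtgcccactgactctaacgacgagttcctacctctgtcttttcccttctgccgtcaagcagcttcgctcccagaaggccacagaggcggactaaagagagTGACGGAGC
Psme3 (chr11:101315963-101316212, plus strand): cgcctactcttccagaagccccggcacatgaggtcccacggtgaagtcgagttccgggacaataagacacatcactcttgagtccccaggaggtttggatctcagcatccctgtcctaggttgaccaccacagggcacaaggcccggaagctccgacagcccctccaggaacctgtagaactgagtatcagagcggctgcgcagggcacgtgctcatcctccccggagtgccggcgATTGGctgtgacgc
Psmd12 (chr11:107479278-107479527, plus strand): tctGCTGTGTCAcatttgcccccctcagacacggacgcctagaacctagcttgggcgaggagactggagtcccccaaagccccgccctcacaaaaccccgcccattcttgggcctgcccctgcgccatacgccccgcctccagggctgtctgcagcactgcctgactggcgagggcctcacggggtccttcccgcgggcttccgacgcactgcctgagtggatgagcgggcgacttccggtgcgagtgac
In Psmb5, Psmb6 and Psmd12 the capitals are the antioxidant response element (on the opposite strand in Psmd12), and in Psmb9 and Psme3 the CCAAT letters on the opposite strand. The Psmb8 window held none of the letters searched. By GENCODE vM21 the Psmb8 gene starts at 34197721 and the Psmb9 gene, on the minus strand, at 34187764. Both windows shown therefore lie inside those gene models. The RefSeq starts of Psmb9 and Tap1, a peptide transporter gene, are 225 bases apart on opposite strands, so their windows share sequence.

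Without stimulation no member passed the test between genotypes. The changes ran from -0.31 log2 for Psmb11 to 0.17 log2 for Psmb10, none of the 47 passed the test in edgeR, DESeq2 or limma voom, and none had an unadjusted p under 0.05. Of all tested genes 1.11% passed. The median difference over the members was -0.03 log2.

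After stimulation Psmd2 and Psme3 were lower in Mirc11-/- than in wild-type cells, and no member was higher. Psmd2, the 19S base subunit that docks ubiquitin shuttles, had 150, 184 and 173 CPM in wild-type and 116, 142 and 138 CPM in Mirc11-/- libraries, without overlap. It was lower by 0.35 ± 0.10 log2 (edgeR adjusted p = 0.0423). Psmd2 shares 31.6% of its 31-base words with other genes, most often with the gene model Gm5422, which had 0 to 5 counts. Psme3 was lower by 0.32 ± 0.09 log2 (edgeR adjusted p = 0.0486), also without overlap. They make 4.26% of the 47 members, against 5.13% of all genes and 8.92% of genes of 10 CPM or more called lower. Without Mirc11-/- stimulated replicate 1 no member passed in edgeR (2.86% of all genes did), with estimates of -0.27 log2 for both, and the count was 0 to 12, and never 2, as each of the 12 libraries was left out in turn. It was 6 without wild-type stimulated replicate 1 and 12 without Mirc11-/- stimulated replicate 2. In the reported fit the median difference over the 47 members was -0.29 log2, with 45 estimates negative. This median was 0.02 log2 over all tested genes and -0.11 log2 over those of 10 CPM or more. Without Mirc11-/- stimulated replicate 1 the median over members was -0.15 log2. Vomeronasal levels differed between these groups without overlap, as did the dendritic-cell and T-cell marker sums given with the ratios. Their part in this difference was not tested, beyond the fit with the vomeronasal covariate, in which no member passed and the median was 0.11 log2.

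The wider pathway was described with 32 fixed genes for shuttling, deubiquitination, assembly and control of the proteasome. Paaf1 was not analysed here, and 31 were tested. In wild-type cells 13 fell and 1 rose, with a median of -0.21 log2, where 15.7% of all tested genes (22.3% of those of 10 CPM or more) were called lower and 16.1% higher. The gene that rose was Nfe2l2 (NRF2), by 0.55 ± 0.09 log2 (edgeR adjusted p = 0.000412). Ubqln2, a shuttle for ubiquitin-tagged proteins, fell by 0.98 ± 0.16 log2, and the endoplasmic reticulum chaperone Hspa5 by 0.65 ± 0.13 log2 (edgeR adjusted p = 0.000385 and 0.00221). Ngly1, the enzyme that trims glycans off NRF1 before it becomes active, fell by 0.53 ± 0.09 log2 (edgeR adjusted p = 0.000589). The proteasome-bound deubiquitinase Uchl5 fell by 0.32 ± 0.08 log2 (edgeR adjusted p = 0.00885), and missed the threshold without stimulated replicate 1 (0.0508).

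Of the 31 pathway genes, 22 fell in Mirc11-/- cells and 1 rose, and 18 and 1 without stimulated replicate 1. The shares called lower were 22.1% and 21.3% of all tested genes, and 35.3% and 33.0% of those of 10 CPM or more. Hspa5 fell by 1.06 ± 0.13 log2 and Ngly1 by 0.76 ± 0.09 log2 (edgeR adjusted p = 3.58e-05 and 2.41e-05). Adrm1, a ubiquitin receptor of the 19S particle named outside the Psm pattern, fell by 0.63 ± 0.11 log2, the proteasome-binding Zfand5 by 0.61 ± 0.09 log2, and Akirin2, which brings proteasomes into the nucleus, by 0.48 ± 0.08 log2 (edgeR adjusted p = 0.000487, 0.00012 and 0.000381). Between genotypes, Nfe2l2 was higher in Mirc11-/- cells before stimulation by 0.43 ± 0.09 log2 (edgeR adjusted p = 0.0357), a call that was lost in 9 of the 12 fits that leave out 1 library (highest adjusted p 0.212). After stimulation 6 of the 31 were lower in Mirc11-/- cells. The shares called lower were 5.13% of all tested genes and 8.92% of those of 10 CPM or more. With stimulated replicate 1 left out, 2 of the 31 were lower, against 2.86% and 4.91%. Among the 6 were Zfand2a (-0.77 log2), Nfe2l1 (-0.53), Hspa5 (-0.52), Ngly1 (-0.35) and Ufd1 (-0.29). Without stimulated replicate 1, Zfand2a and Nfe2l1 passed at -0.68 and -0.42 log2 (edgeR adjusted p = 0.00784 and 0.0349), but Nfe2l1 missed the threshold without wild-type stimulated replicate 2 or 3 (0.0884 and 0.0793). No pathway gene passed the test of the difference between responses.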

How the data were processed

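PolyA RNA was sequenced with TruSeq libraries, per the labels. The submitters' processing notes list RSEM 1.3.0, Bowtie2 2.2.8, Trim Galore 0.4.1, bcl2fastq and the build GRCm38. The values the authors deposited are RSEM estimated counts per gene, unscaled and already whole. No annotation release or strand setting is given in the sources used here, and overlapping genes may share reads. In GENCODE vM21, exons of Psmb8 overlap Gm20496 over 14.7% and those of Psmb7 overlap Nek6 over 11.8% of their length, on the opposite strand. Psma3 shares 20.3% of its 31-base words with other genes. Sharing and overlap are given here for some members only. Genes were filtered with filterByExpr, scaled with TMM and fitted in edgeR 4.0.16 (R 4.3.3; robust quasi-likelihood, 12 libraries, 1 mean per group). P values are two-sided, adjusted by Benjamini-Hochberg over 17457 genes. CPM use TMM-scaled library sizes. Subunit ratios used log2(count + 0.5) and exact permutation over samples. The members, lists and rule for named genes (the catalytic pairs, Psme1 to Psme4, and up to 2 called members of smallest p per class, with up to 6 of the pathway) were chosen with earlier results of these data known. Some genes of these lists are counted but not reported by name here. Genes named beyond the rule were chosen after their values were seen. Deviations of same-numbered wild-type libraries had correlations of 0.26, 0.45 and 0.25. Without values for different-numbered libraries, these do not show whether the numbers pair libraries, and the reported fit used no block. Alternatives included DESeq2 1.42.0 and limma 3.58.1. The edgeR and permutation steps were tested on simulated data. Depth was 15139281 to 25342991 counts per library.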

Additional observations from a re-analysis of the deposited data

How the results depend on the processing

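Over 80 results of the fits and ratio tests and 14 alternatives beside the reported fit, 718 of 814 values kept their direction and their side of the threshold, or for values with no test stayed within the replicate spread, as did 844 of 960 values with 1 library left out. Most values that changed direction did so when the covariate of vomeronasal CPM entered the model. With it, the median over members became 0.25, 0.35 and 0.11 log2 for wild-type stimulation, Mirc11-/- stimulation and the genotype difference after stimulation. In wild-type cells 2 members were then lower and 6 higher, in Mirc11-/- cells 1 was lower, and between stimulated genotypes 0 were lower. Wild-type estimates became 0.37 for Psmb8, 0.16 for Psmb10, 0.43 for Psmb5, 0.29 for Psme1 and 0.45 for Psme2. Mirc11-/- estimates became 0.43 for Psmb8, 0.15 for Psmb9, 0.24 for Psmb10, 0.72 for Psmb5, 0.85 for Psmb6, 0.29 for Psmb7, 0.32 for Psme1, 0.60 for Psme2, 0.35 for Psma5, 0.081 for Psma3, 0.11 for Psmc1, 0.39 for Psmc5, 0.12 for Psmg2 and 0.035 for Adrm1. The cause was not tested.

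Members lower in wild-type cells numbered 13 with no composition factor and 11 in a fit of only the 2 groups. On Mirc11-/- stimulation they numbered from 22 (only the 2 groups) to 36 (no filter), the covariate aside. Members lower in Mirc11-/- against wild-type stimulated cells numbered 0 with no composition factor, 16 with no filter, 1 with the stricter filter, 1 without robust dispersion, 10 with DESeq2, 1 with limma voom and 0 with only the 2 groups. The filter of 5 CPM, the stricter one, called 1 member, Psme4, higher in stimulated Mirc11-/- cells. Psmb6 and Psmb7 in wild-type cells turned to -0.029 and -0.055 with no composition factor and to -0.00495 and -0.030 with no filter, and Psmb9 in Mirc11-/- cells to 0.018 with the stricter filter. With no filter the median over all genes was 0.17 and 0.77 log2 in the 2 stimulations, over 42168 genes.

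With 1 library left out, members lower ranged from 4 to 15 in wild-type and from 21 to 35 in Mirc11-/- stimulation. Between stimulated genotypes they ranged from 0 to 12. Psmb6 and Psmb7 in wild-type cells ranged from -0.039 to 0.11 and from -0.056 to 0.051, and Psmb9 in Mirc11-/- cells from -0.17 to 0.0086. Psmb10/Psmb7 ranged from -0.25 to -0.15 for stimulation and from 0.16 to 0.26 for genotype, Psmb9/Psmb6 from 0.31 to 0.42 for genotype, and Psmb8/Psmb5 from 0.065 to 0.14 for stimulation.

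With the replicate number as a block, 9, 33 and 9 members were lower in wild-type stimulation, Mirc11-/- stimulation and between stimulated genotypes, and with a block within genotype 10 and 35 in the 2 stimulations. Same-numbered Mirc11-/- libraries had correlations of 0.14, -0.11 and 0.37, which likewise do not show whether the numbers pair them. The same limit holds between genotypes. The block changed no other count of calls by over 1.5 times, and sign flips of pairs changed no call of a ratio with stimulation.

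With 3 libraries per group and vomeronasal levels that differ between the groups, an estimate that misses the threshold does not show that a member was unchanged.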

Other observations

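Genes of MHC class I presentation and its regulators, which interferon gamma is known to induce along with the immunosubunits, were set beside them from a list of 10. In wild-type cells 4 rose on stimulation, where 16.1% of all tested genes were called higher: Tap1 by 0.43 ± 0.12 log2, B2m by 0.50 ± 0.16, H2-D1 by 0.44 ± 0.15 and H2-K1 by 0.39 ± 0.13 (SE; edgeR adjusted p = 0.0135, 0.0311, 0.0363 and 0.0402). Leaving out 1 library at a time ended the call of H2-D1 and of H2-K1 in 7 of 12 fits each (highest adjusted p 0.168 and 0.184), of B2m without wild-type unstimulated replicate 3 or stimulated replicate 1 or 2 (highest 0.140), and of Tap1 without wild-type unstimulated replicate 3 or stimulated replicate 1 (0.0742 and 0.0508). Nlrc5, the transactivator of class I genes, fell by 1.56 ± 0.17 log2 in wild-type and by 1.44 ± 0.17 log2 in Mirc11-/- cells (edgeR adjusted p = 2.3e-05 and 2.85e-05). In Mirc11-/- cells Nlrc5 was the member of the list that passed. Tap2, Tapbp, Irf1 and Irf8 passed in neither genotype. Tap1 and Psmb9, whose RefSeq starts are 225 bases apart, had changes of 0.43 and 0.11 log2 in wild-type cells, and Psmb9 did not pass. In the GENCODE models, which start elsewhere, the exons of Psmb9 overlap those of Tap1 on the opposite strand over 5.79% of their length. The strand setting is not given in the sources used here.

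A pair of genes related to members is outside the counts above. Fam192a, an interactor of Psme3 under an older symbol, had 369 to 747 counts and changes of -0.03 and -0.11 log2 in wild-type and Mirc11-/- cells (edgeR adjusted p = 0.839 and 0.386). Psme2b, the copy of Psme2, had changes of 0.64 and 0.38 log2 and did not pass (edgeR adjusted p = 0.0803 and 0.266).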
